A study of Homo sapiens with 4 samples.

Results

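Dehydrogenases, reductases and oxidases are enzymes that move electrons between substrates and a carrier such as NAD(P), a flavin, a metal ion or glutathione. The group described here holds every gene whose deposited name contains dehydrogenase, reductase or oxidase. Names with kinase, phosphatase or aldo-keto were left out, as were ACADM, ACADVL, ACADSB and RRM2, which removed 8 genes from each line. It comprises 42 genes, 32 of the 1903 genes listed for the line SCC1 and 20 of the 1545 listed for the line FaDu, and 10 of them are listed in both. The name rule also takes in peroxidases, subunits and assembly factors that are not themselves oxidoreductases.

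The libraries were made from total RNA of SCC1 and FaDu, 2 established human lines of squamous carcinoma of the head and neck, FaDu from the hypopharynx. The groups were SCC1 cells given a siRNA against FOSL1, SCC1 cells given control siRNA, FaDu cells given the FOSL1 siRNA and FaDu cells given control siRNA, each treated for 48 h in medium with serum. The target gene encodes FRA1, a FOS family protein that pairs with JUN proteins to form AP-1, a transcription factor. Each group had 1 library, so no difference below has a replicate check and no test between conditions was made.

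The values are CPM (counts per 1000000 reads of the effective library), and each was a whole number of reads, from effective libraries of 11280745 (SCC1, FOSL1 siRNA), 13242163 (SCC1, control), 10365774 (FaDu, FOSL1 siRNA) and 11477600 reads (FaDu, control). FOSL1 itself was at 3.99 CPM in SCC1 with FOSL1 siRNA, against 133 CPM in its control, and at 36.9 CPM in FaDu with FOSL1 siRNA, against 774 CPM in its control. Of 11 squamous epithelial markers 1 was listed in SCC1 (CDH1), at 192 CPM with FOSL1 siRNA and 101 CPM in the control, and 4 keratins were listed in FaDu, summing to 2645 CPM with FOSL1 siRNA and 801 CPM in the control. No endothelial, melanocyte or muscle marker was listed in either line. A table that holds only listed genes cannot show the other markers, so the labelled cell type could be checked only in part. Of 9 fibroblast markers, 0 were listed in SCC1 and 2 in FaDu, with summed levels of 5.50 CPM with FOSL1 siRNA and 14.7 CPM in the control. Of 7 leukocyte markers, 1 was listed in SCC1 (CD68), at 3.99 CPM with FOSL1 siRNA and 17.3 CPM in the control, and 2 in FaDu, summing to 15.1 CPM with FOSL1 siRNA and 38.3 CPM in the control. The part of these cell types' genes in the results was not tested. The labels name only cell lines, so these markers are not read as fibroblasts or leukocytes being present. In bulk RNA, fewer cells with a transcript and less of it per cell cannot be told apart.

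Several of these enzymes form short chains of reactions. IDH1 and PGD make NADPH in the cytosol, GSR spends it to reduce oxidised glutathione, and glutathione peroxidases use that glutathione to remove peroxides. MTHFD1, ALDH1L2 and MTRR handle folate-bound carbon and keep methionine synthase active, and CPOX and PPOX catalyse successive late steps of heme synthesis. Many antioxidant enzymes of this kind are known targets of NRF2, which binds antioxidant response elements, whereas AP-1 binds a related but shorter element.

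The promoters of 5 of the genes are shown because they match a pattern used here for one of these elements and stand for genes of both directions. Promoter windows, 250 bases before to 50 bases after an annotated start, were found in RefSeq (GRCh38.p14) for 30 of the 42 genes, by current or older symbol. Capitals mark a match on either strand to TGACNNNGC, the core of the antioxidant response element, or to TGANTCA. The latter is a loose pattern for the AP-1 element that accepts any middle base, so a match need not be an AP-1 element. GPX2 (chr14:64942696-64942995, minus strand), IDH1 (chr2:208255022-208255321, minus strand), PGD (chr1:10398814-10399113, plus strand) and XDH (chr2:31414693-31414992, minus strand) hold TGACNNNGC, 122, 143, 201 and 217 bases before the start. Another IDH1 window (chr2:208254409-208254708, minus strand), not shown, holds neither pattern. DDO (chr6:110415526-110415825, minus strand) matches TGANTCA, with the letters TGAATCA, 24 bases before the start.
GPX2: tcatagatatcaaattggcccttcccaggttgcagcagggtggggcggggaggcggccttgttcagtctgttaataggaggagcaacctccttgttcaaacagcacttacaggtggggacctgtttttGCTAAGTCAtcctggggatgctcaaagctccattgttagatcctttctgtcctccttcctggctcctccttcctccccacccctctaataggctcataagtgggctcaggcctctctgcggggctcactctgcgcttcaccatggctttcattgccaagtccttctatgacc
IDH1: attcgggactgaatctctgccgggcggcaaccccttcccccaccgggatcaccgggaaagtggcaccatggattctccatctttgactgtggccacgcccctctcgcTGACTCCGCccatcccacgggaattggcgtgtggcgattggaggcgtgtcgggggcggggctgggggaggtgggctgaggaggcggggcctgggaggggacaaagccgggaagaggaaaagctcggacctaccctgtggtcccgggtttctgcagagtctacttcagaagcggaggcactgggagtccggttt
PGD: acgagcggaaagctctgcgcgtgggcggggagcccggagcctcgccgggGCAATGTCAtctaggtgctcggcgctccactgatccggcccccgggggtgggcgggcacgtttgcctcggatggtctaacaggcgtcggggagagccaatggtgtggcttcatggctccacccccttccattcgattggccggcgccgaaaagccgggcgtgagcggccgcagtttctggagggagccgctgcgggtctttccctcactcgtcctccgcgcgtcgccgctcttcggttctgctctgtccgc
XDH: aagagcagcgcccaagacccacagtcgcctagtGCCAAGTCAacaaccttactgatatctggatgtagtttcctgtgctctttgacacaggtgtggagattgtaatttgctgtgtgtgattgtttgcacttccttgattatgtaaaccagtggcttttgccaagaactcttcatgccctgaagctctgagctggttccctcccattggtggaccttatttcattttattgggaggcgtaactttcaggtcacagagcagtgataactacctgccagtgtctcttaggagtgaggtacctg
DDO: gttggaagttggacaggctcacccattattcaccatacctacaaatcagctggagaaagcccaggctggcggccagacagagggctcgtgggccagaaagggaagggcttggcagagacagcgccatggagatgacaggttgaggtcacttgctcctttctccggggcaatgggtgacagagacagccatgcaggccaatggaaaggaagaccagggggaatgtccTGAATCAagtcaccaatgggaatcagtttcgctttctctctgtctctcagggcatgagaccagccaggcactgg

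GPX2, IDH1 and PGD were higher after FOSL1 siRNA where listed, DDO was higher in SCC1, and XDH was lower in SCC1. TGACNNNGC was found for 8 of the 30 genes, 26.7%, against 16.1% of the 27305 genes of the promoter table; several genes on both sides have more than 1 window. Among SCC1 members it was found for 5 of 11 that were higher (DHRS1, GPX2, IDH1, OGDHL, PGD) and 2 of 12 that were lower (NDUFAF3, XDH). Among FaDu members it was found for 2 of 6 that were higher (GPX2, IDH1) and 2 of 9 that were lower (LACC1, NDUFAF3). TGANTCA was found for DDO alone, 1 of 30 genes, against 9.37% in the table. The motifs share their first letters, so 1 stretch can match both. A match describes these letters in this window only, and these counts were not tested. No coordinate or promoter was set against the authors' own alignment, which used another build.

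In SCC1, 14 members were higher and 18 were lower after FOSL1 siRNA, 43.8% and 56.2%, where 40.6% of all listed genes were higher and 59.4% lower. In FaDu, 10 were higher and 10 lower, where 42.5% of all listed genes were higher and 57.5% lower. Listed genes made up 13.8% of the authors' 13796 tested genes in SCC1, 5.6% higher and 8.19% lower, and 11.2% in FaDu, 4.76% higher and 6.44% lower. The members of either table are thus genes that had already passed the authors' comparison, and the number of enzymes of this kind among all tested genes is not known here. The median difference of members was 2.42-fold in SCC1 and 2.49-fold in FaDu, beside 2.58-fold and 2.68-fold for all listed genes. A difference of at least 3-fold was seen for 9 of 32 members in SCC1 (36.2% of all listed genes) and 6 of 20 in FaDu (40.9% of all listed genes). In SCC1, 5 members of the authors' deposited table had an FDR under 0.05 (AOX1, GPX2, MSRB3, CBR3 and ACAD11), as did 27.4% of listed genes. In FaDu, 2 members of the authors' deposited table did (CP and MSRB3), as did 25.4% of listed genes. A likelihood ratio test in edgeR on the recovered reads, which compares the libraries and not the conditions, called all members and 100% of listed genes in both lines at an assumed dispersion of 0.05. That outcome was fixed in advance. Only genes that passed the authors' comparison were listed, and at this dispersion the test repeats the authors' p-values to within 1%. At 0.16 it called 6 of 32 members in SCC1, where it called 25.4% of listed genes, and 4 of 20 in FaDu, where it called 29.8%. When each line's log2 ratios were shifted so that the median of listed genes, -1.05 in SCC1 and -1.01 in FaDu, became 0, the split, again counted from 1.5-fold, was 14 higher and 5 lower in SCC1 and 10 higher and 3 lower in FaDu. The members still lower by that bound were ACAD11, AOX1, CBR3, LOXL3 and MSRB3 in SCC1, and LACC1, MSRB3 and STEAP2 in FaDu. Those medians lie among the lower genes by construction, because more genes were listed as lower than as higher and the tables hold no small differences.

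**Figure D1:**
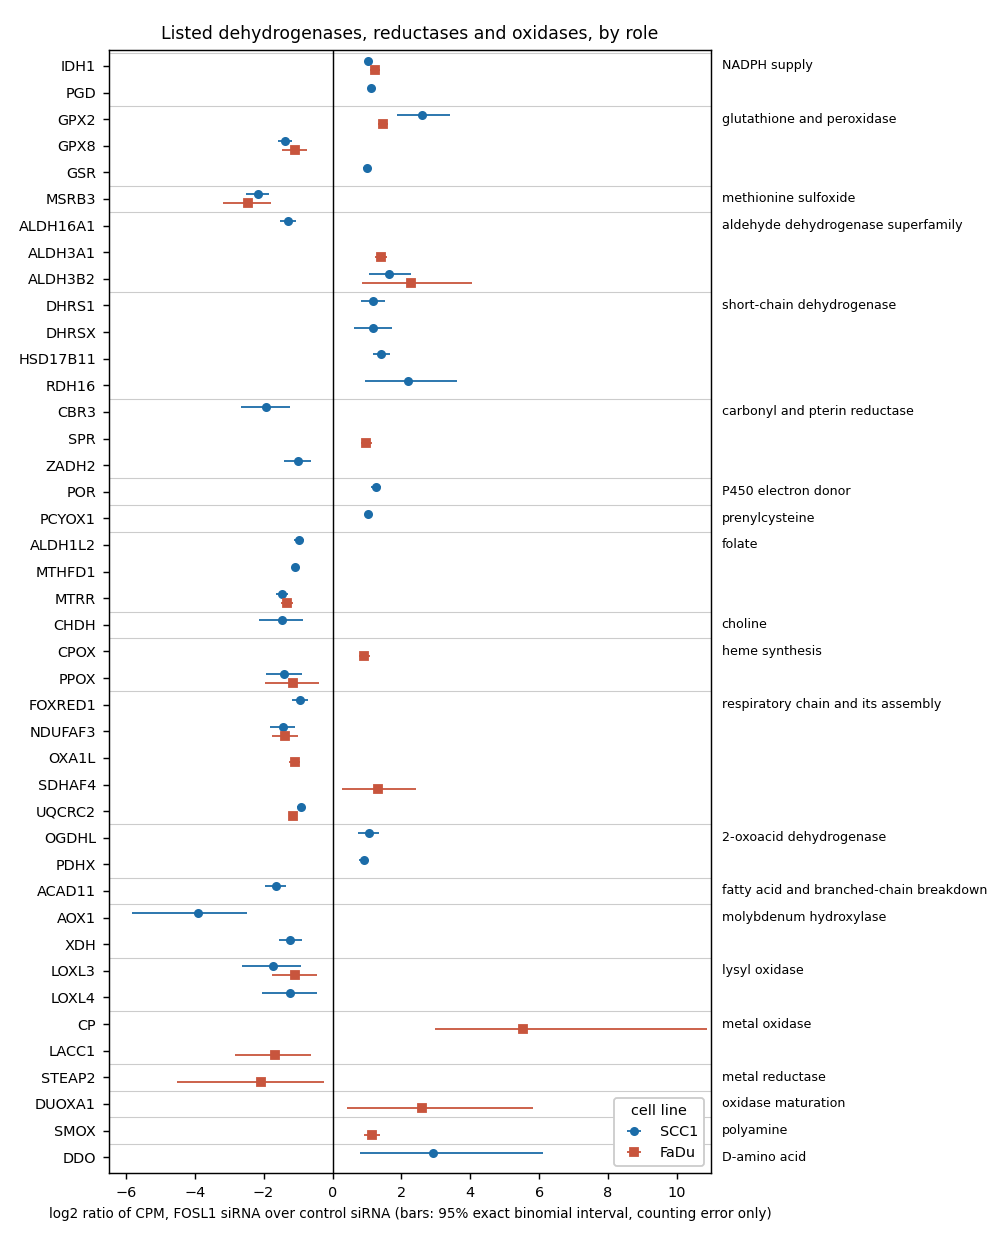
Log2 ratio of CPM, FOSL1 siRNA over control siRNA, for all 42 members, 1 row per gene and grouped by role (names at the right); circles are SCC1, squares are FaDu, and bars are 95% exact binomial intervals that cover counting error only. Points right of 0 were higher after FOSL1 siRNA; in the 10 rows with a circle and a square both lie on the same side, except that shifting the SCC1 median to 0 turns UQCRC2 there, as it does ALDH1L2, FOXRED1 and ZADH2.

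The 10 members listed in both lines had the same direction in both, 3 higher and 7 lower, where 96.6% of the 678 genes listed in both lines had the same direction, 33.5% higher and 63.1% lower in both. They are 31.2% of the SCC1 members and 50% of the FaDu members, and the 678 genes are 35.6% of listed SCC1 genes and 43.9% of listed FaDu genes. Intervals in parentheses are 95% exact binomial intervals on the reads. They describe counting error alone and treat reads as separate molecules, although PCR copies without molecular identifiers are not.

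GPX2, a selenium-containing glutathione peroxidase of epithelia, was the member whose control level differed most between the lines among these 10. It had 8.24 CPM with FOSL1 siRNA and 1.36 CPM in the control in SCC1, and 134 CPM with FOSL1 siRNA and 48.3 CPM in the control in FaDu. Both libraries with FOSL1 siRNA were above their own control, by 6.07-fold in SCC1 (3.63 to 10.7) and 2.77-fold in FaDu (2.50 to 3.06). In the authors' deposited table its FDR was 0.00105 in SCC1 and 0.0578 in FaDu. The sources used here do not say whether the tables of the lines were normalised together, which limits any level set across lines.

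IDH1, the cytosolic isocitrate dehydrogenase that makes NADPH, had 329 CPM with FOSL1 siRNA and 161 CPM in the control in SCC1, and 140.1 CPM with FOSL1 siRNA and 59.6 CPM in the control in FaDu. Both lines showed it higher, by 2.05-fold in SCC1 (1.94 to 2.16) and by 2.35-fold in FaDu (2.14 to 2.58), with an FDR of 0.246 and 0.152 in the authors' deposited tables. ALDH3B2, an enzyme that oxidises lipid-derived aldehydes, had 7.80 CPM with FOSL1 siRNA and 2.49 CPM in the control in SCC1. In FaDu it had 2.12 CPM with FOSL1 siRNA and 0.436 CPM in the control, from 22 and 5 reads. It was higher in both lines, 3.13-fold in SCC1 (2.08 to 4.82) and 4.87-fold in FaDu (1.80 to 16.5), the second on few reads. ALDH3B1 is a close paralog, so reads could be divided between these genes and the value is uncertain.

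MSRB3, which reduces oxidised methionine in the endoplasmic reticulum and mitochondria, was the only member with an FDR under 0.05 in both lines. It had 7.98 CPM with FOSL1 siRNA against 35.7 CPM in the control in SCC1, and 2.03 CPM with FOSL1 siRNA against 11.1 CPM in the control in FaDu. Its level was lower by 4.48-fold in SCC1 (3.57 to 5.67) and by 5.46-fold in FaDu (3.42 to 9.13), and in the authors' deposited tables its FDR was 0.00169 and 0.0018. GPX8, a peroxidase of the endoplasmic reticulum membrane, had 24.3 CPM with FOSL1 siRNA against 63.3 CPM in the control in SCC1, and 8.97 CPM with FOSL1 siRNA against 19.2 CPM in the control in FaDu. It was thus lower in both lines, by 2.61-fold (2.271 to 2.997) and 2.14-fold (1.67 to 2.75), the opposite direction to GPX2 of the same family.

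MTRR, which reactivates methionine synthase, had nearly the same levels in both lines. It was at 28.5 CPM with FOSL1 siRNA and 78.7 CPM in the control in SCC1, and at 33.6 CPM with FOSL1 siRNA and 83.8 CPM in the control in FaDu. The difference was 2.76-fold in SCC1 (2.43 to 3.13) and 2.50-fold in FaDu (2.21 to 2.83). NDUFAF3, an assembly factor of respiratory complex I, was at 7.27 CPM with FOSL1 siRNA and 19.9 CPM in the control in SCC1, and at 8.10 CPM with FOSL1 siRNA and 21.0 CPM in the control in FaDu. The SCC1 level was 2.73-fold lower (2.12 to 3.55) and the FaDu level 2.59-fold lower (2.01 to 3.36), with control levels of the lines again close. Its exons overlap those of DALRD3 on the opposite strand, which was also lower in SCC1, at 5.05 CPM with FOSL1 siRNA and 12.8 CPM in the control. The strand setting of the counting is not given, so reads of these genes cannot be told apart.

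UQCRC2, a core subunit of respiratory complex III, had 123 CPM with FOSL1 siRNA and 235 CPM in the control in SCC1, and 169 CPM with FOSL1 siRNA and 376 CPM in the control in FaDu. In SCC1 it was lower by 1.90-fold (1.78 to 2.03), a direction that the shift of the median turns, to a log2 ratio of 0.13. In FaDu it was lower by 2.23-fold (2.11 to 2.36), and after the shift the log2 ratio there was -0.14, short of 1.5-fold. PPOX, the enzyme before the last step of heme synthesis, had 3.90 CPM with FOSL1 siRNA and 10.3 CPM in the control in SCC1, and 2.03 CPM with FOSL1 siRNA and 4.53 CPM in the control in FaDu. PPOX was thus lower in both lines, 2.63-fold in SCC1 (1.86 to 3.79) and 2.24-fold in FaDu (1.32 to 3.91). Its exons overlap those of B4GALT3 on the opposite strand, which was 1.94-fold higher in SCC1. LOXL3, a copper enzyme that crosslinks collagen and elastin, had 1.42 CPM with FOSL1 siRNA and 4.68 CPM in the control in SCC1, and 2.89 CPM with FOSL1 siRNA and 6.19 CPM in the control in FaDu. It was lower in both lines, 3.30-fold in SCC1 (1.88 to 6.13) and 2.14-fold in FaDu (1.38 to 3.39), on at most 71 reads in a library. Its exons overlap those of DOK1 on the opposite strand, which was 2.61-fold higher in SCC1.

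The size of the difference was larger in SCC1 for 6 of the 10 and larger in FaDu for 4. The intervals of the 2 lines overlapped for 8 of them and did not for GPX2, with the larger fold in SCC1, and UQCRC2, with the larger fold in FaDu. Neither count was made for the other genes listed in both lines, so no share stands beside them. The intervals cover counting error alone and narrow as reads increase. With 1 library per group the difference between lines was not tested.

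**Figure D2:**
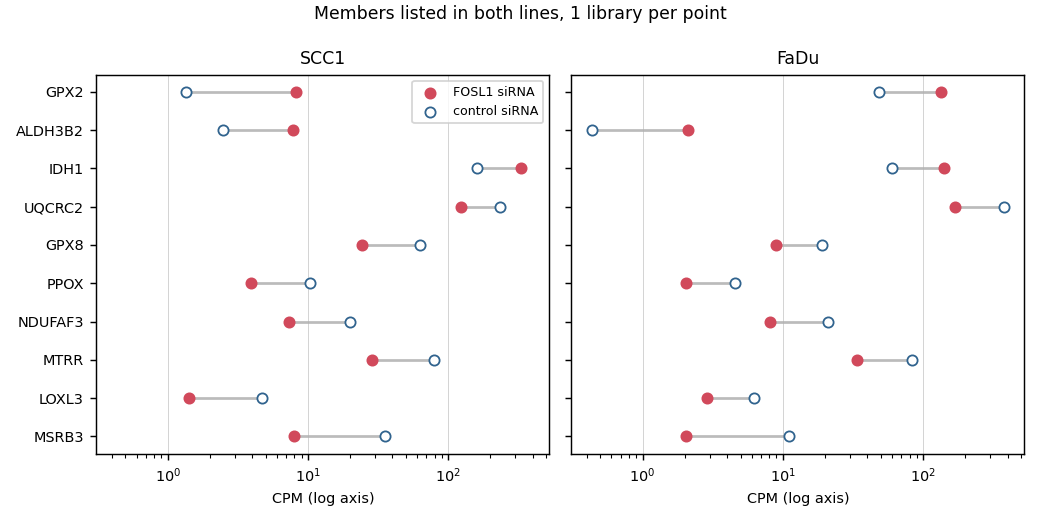
CPM (log axis) of the 10 members listed in both lines, SCC1 at the left and FaDu at the right; filled points are the libraries with FOSL1 siRNA and open points the control libraries, 1 library each. GPX2, ALDH3B2 and IDH1 lie higher with FOSL1 siRNA in both panels and the other 7 lower; UQCRC2 in SCC1 turns when the median of listed genes is shifted to 0.

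**Figure D3:**
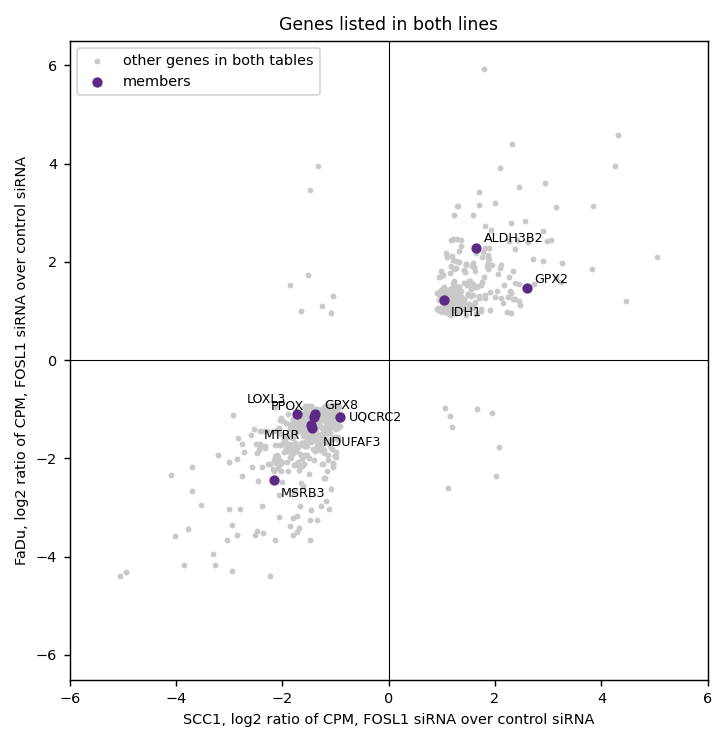
Log2 ratio of CPM, FOSL1 siRNA over control siRNA, in SCC1 (horizontal) and FaDu (vertical) for 663 genes listed in both lines with reads in all 4 libraries; dark points are the 10 members, grey points the other genes, and 15 genes at 0 reads in a library are not drawn. All 10 members lie in the quadrants of the same direction, GPX2 to the right of IDH1 and ALDH3B2, and MSRB3 the lowest; UQCRC2 crosses in SCC1 under the shift of the median.

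PGD and GSR, which with IDH1 make NADPH or spend it on glutathione, were higher in SCC1. MTHFD1 and ALDH1L2, which can also yield NADPH in folate reactions, were lower there, ALDH1L2 with a sign that turns under the shift of the median. PGD, an NADPH-yielding enzyme of the pentose phosphate pathway, had 328 CPM with FOSL1 siRNA and 151 CPM in the control, and was 2.17-fold higher (2.06 to 2.30). GSR had 126 CPM with FOSL1 siRNA and 63.4 CPM in the control, and was 1.99-fold higher (1.83 to 2.17). POR, which passes electrons from NADPH to microsomal cytochromes P450, had 122 CPM with FOSL1 siRNA and 50.7 CPM in the control, and was 2.40-fold higher (2.19 to 2.64). In the authors' deposited table their FDR lay between 0.114 (POR) and 0.276 (GSR), so none passed 0.05. PGD, GSR and POR are not listed in FaDu, which does not show that they were unchanged there. Beside the lists that follow, 13.8% of all tested genes were listed in SCC1 and 11.2% in FaDu. The lists were not limited to genes that the authors tested. A share of a list and a share of tested genes are therefore not like for like. Of a list of 23 glutathione, thioredoxin and peroxidase genes, 4 were listed in SCC1 (GPX2 and GSR higher, GPX8 and MSRB3 lower) and 3 in FaDu (GPX2 higher, GPX8 and MSRB3 lower), all of them members. On a list of 9 pentose phosphate and sugar genes PGD was the 1 higher and TSTA3, no member, the 1 lower gene in SCC1, and TSTA3 was the 1 listed gene in FaDu, lower. CBR3, an NADPH-dependent carbonyl reductase, went the other way in SCC1, with 1.95 CPM with FOSL1 siRNA and 7.40 CPM in the control, 3.79-fold lower (2.37 to 6.33) at an FDR of 0.0247 in the authors' deposited table. ZADH2, a prostaglandin reductase, was 2.02-fold lower (1.55 to 2.66), a sign that the shift of the median turns. SPR, which completes the synthesis of tetrahydrobiopterin, was 1.98-fold higher in FaDu (1.76 to 2.22).

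**Figure D4:**
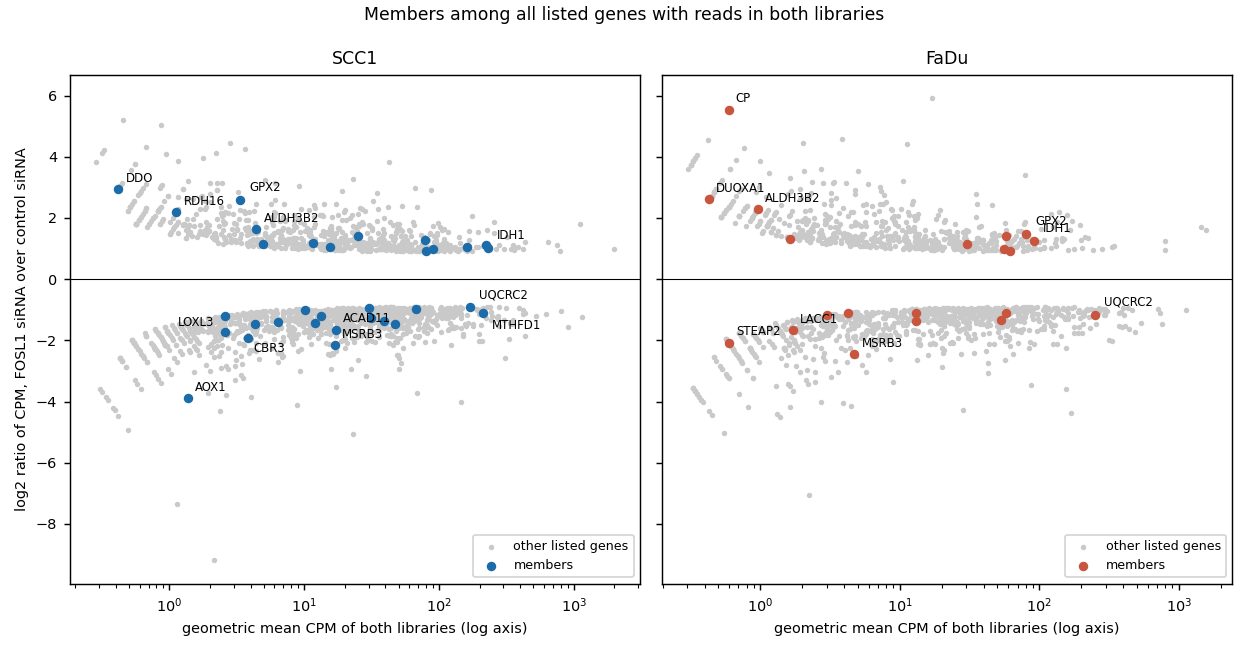
Log2 ratio of CPM, FOSL1 siRNA over control siRNA, against the geometric mean CPM of both libraries (log axis) for listed genes with reads in both, 1871 in SCC1 (left) and 1509 in FaDu (right); coloured points are members and grey points other listed genes, with names at members of at least 3-fold and at GPX2, IDH1, UQCRC2 and MTHFD1. The empty band around 0 is the authors' selection; members lie along its edge at high levels and reach 14.9-fold lower (AOX1) and 46.5-fold higher (CP) at low ones, and UQCRC2 in SCC1 is among those that change side when the median is shifted.

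Short-chain dehydrogenases are a superfamily that acts on steroids, retinoids and other alcohols. CBR3, lower in SCC1, SPR, higher in FaDu, and TSTA3, no member and lower in both lines, are among its genes left out below. The counts that follow thus depend on filing. On a list of 48 other short-chain, retinol and steroid dehydrogenases, 4 were higher in SCC1, 0 were lower and 44 were not listed, where 5.6% of tested genes were listed as higher and 8.19% as lower. In FaDu 0 of 48 were listed, where 11.2% of tested genes were. How many of the 48 the authors tested is not known here. HSD17B11, an enzyme found on lipid droplets, had 41.0 CPM with FOSL1 siRNA and 15.3 CPM in the control, and was 2.67-fold higher (2.26 to 3.17). RDH16, a retinol dehydrogenase, had 2.39 CPM with FOSL1 siRNA and 0.529 CPM in the control, from 27 and 7 reads, and was 4.53-fold higher (1.92 to 12.3). DHRS1 was 2.26-fold higher (1.77 to 2.89) and DHRSX 2.24-fold higher (1.54 to 3.31). DHRSX has a copy on X and on Y in the region that both chromosomes share, so its reads can be divided between copies. PCYOX1, which breaks down prenylated cysteine and releases hydrogen peroxide, had 230.2 CPM with FOSL1 siRNA and 112 CPM in the control in SCC1, 2.05-fold higher (1.92 to 2.19).

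Among the aldehyde dehydrogenases, ALDH3A1, which clears aldehydes of lipid peroxidation in cornea and other epithelia, was listed in FaDu. It had 93.9 CPM with FOSL1 siRNA and 35.5 CPM in the control, and was 2.64-fold higher (2.35 to 2.97) at an FDR of 0.0804 in the authors' deposited table. ALDH16A1, an atypical member of the superfamily, was 2.44-fold lower in SCC1 (2.09 to 2.85). Of 26 aldehyde and alcohol dehydrogenases, 1 was higher and 2 lower in SCC1, and 2 higher and 0 lower in FaDu; the listed share of all tested genes was 13.8% in SCC1 and 11.2% in FaDu. The lower genes in SCC1 are ALDH16A1 and ALDH1L2, and ALDH1L2 turns under the shift of the median. On a list of 21 quinone, carbonyl, biliverdin and other reductases, POR was higher and CBR3 and MTRR lower in SCC1, and MTRR was lower in FaDu. POR and MTRR are the reductases of other kinds among them. ZADH2, lower in SCC1, and SPR, higher in FaDu, were not on that list.

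The folate enzymes were lower where listed. The shift of the median raises every ratio by construction, and after it none of them was lower by 1.5-fold. The shift turned ALDH1L2 and left the log2 ratio of MTHFD1 at -0.039 and that of MTRR at -0.41 in SCC1 and -0.31 in FaDu, all short of 1.5-fold. MTHFD1, which interconverts folate-bound carbon units in the cytosol, had 145 CPM with FOSL1 siRNA and 308 CPM in the control in SCC1, and was 2.13-fold lower (2.01 to 2.26). ALDH1L2, the mitochondrial formyltetrahydrofolate dehydrogenase, had 48.0 CPM with FOSL1 siRNA and 94.3 CPM in the control, 1.96-fold lower (1.77 to 2.18), and its sign turns under the shift of the median. CHDH, which begins the conversion of choline to the methyl donor betaine, was 2.79-fold lower in SCC1 (1.82 to 4.39). On a list of 17 genes of the folate and methionine cycle drawn up after these values were seen, 6 were lower and 0 higher in SCC1, and 2 were lower and 0 higher in FaDu; the count in SCC1 includes ALDH1L2, which turns. Of all tested genes 8.19% were listed as lower in SCC1 and 6.44% in FaDu, and of listed genes 59.4% and 57.5% were lower, and nothing about the pathway is read from a list chosen this way. The genes beyond the members are TYMS, 2.05-fold lower in SCC1, and MTR, methionine synthase, the enzyme that MTRR serves. MTR had 14.1 CPM with FOSL1 siRNA and 58.6 CPM in the control in SCC1, and 23.6 CPM with FOSL1 siRNA and 61.2 CPM in the control in FaDu. The level of MTR was lower by 4.16-fold in SCC1 (3.50 to 4.96) and by 2.59-fold in FaDu (2.23 to 3.01). In the authors' deposited tables its FDR was 0.0025 and 0.0953, and that of MTRR was 0.052 and 0.113. The shift of the median was applied to members only, so MTR has no shifted value. Whether the 2 genes change together was not tested.

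Heme synthesis was listed in part and in both directions. CPOX, whose product is the substrate of PPOX, was higher in FaDu, with 84.5 CPM with FOSL1 siRNA and 44.7 CPM in the control, 1.89-fold (1.69 to 2.11), while PPOX was lower there. Its fold ranks 1539 of the 1545 genes listed for FaDu, at the edge of the authors' selection. Of 9 heme synthesis genes, a list drawn up after these values were seen, 0 were higher and 2 lower in SCC1 (UROD and PPOX), and 2 were higher (ALAD and CPOX) and 1 lower (PPOX) in FaDu, beside 13.8% of all tested genes listed in SCC1 and 11.2% in FaDu.

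In the mitochondrial group, FOXRED1, an assembly factor of complex I, was 1.92-fold lower in SCC1 (1.65 to 2.24), a sign that turns under the shift. OXA1L, which inserts proteins into the inner membrane, had 39.3 CPM with FOSL1 siRNA and 84.3 CPM in the control in FaDu and was 2.15-fold lower (1.91 to 2.42). SDHAF4, an assembly factor of complex II, was 2.49-fold higher in FaDu (1.22 to 5.40), on 27 reads with FOSL1 siRNA and 12 in the control. Of a list of 66 subunits of the respiratory complexes, 1 was lower in each line, UQCRC2, and the other 65 were not listed. After the shift of the median, which turns UQCRC2 in SCC1, it is counted neither as higher nor as lower in either line, since it lies within 1.5-fold. Among all tested genes, 13.8% were listed in SCC1 and 11.2% in FaDu. PDHX, a structural component of the pyruvate dehydrogenase complex, had 110.2 CPM with FOSL1 siRNA and 58.6 CPM in the control in SCC1 and was 1.88-fold higher (1.72 to 2.06), rank 1901 of 1903 listed genes. OGDHL, a homologue of oxoglutarate dehydrogenase, was 2.08-fold higher (1.69 to 2.57). A list of 25 genes of pyruvate, the TCA cycle and lactate also held IDH1, the cytosolic enzyme. On it 3 were higher and 0 lower in SCC1 (IDH1, OGDHL and PDHX), and 1 was higher in FaDu (IDH1). Of tested genes, 5.6% were listed as higher in SCC1 and 4.76% in FaDu, and 13.8% and 11.2% were listed in either direction. Of 30 genes of sterol and lipid metabolism, 0 were higher and 2 lower in SCC1 (ACAD11 and LBR), and 0 were listed in FaDu, beside the 13.8% and 11.2% of tested genes. ACADM, ACADVL and ACADSB, left out of the group by rule, are not in these counts. ACAD11, an acyl-CoA dehydrogenase of fatty acid breakdown, had 9.66 CPM with FOSL1 siRNA and 30.4 CPM in the control in SCC1, 3.14-fold lower (2.54 to 3.92), at an FDR of 0.0264 in the authors' deposited table.

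AOX1 and XDH, related molybdenum enzymes that oxidise aldehydes, heterocycles and purines, were both lower in SCC1. AOX1 had the largest fold among SCC1 members, with 0.355 CPM from 4 reads with FOSL1 siRNA and 5.29 CPM from 70 reads in the control, 14.9-fold lower (5.57 to 56.2). With 1 CPM added to both values its log2 ratio was -2.21 in place of -3.90. In the authors' deposited table its FDR was 5.15e-05. XDH had 8.78 CPM with FOSL1 siRNA and 20.5 CPM in the control, 2.33-fold lower (1.85 to 2.97). Of 38 amino acid, folate and nucleotide genes, 4 were lower and 0 higher in SCC1 (AOX1, CHDH, MTHFD1 and XDH), and 0 were listed in FaDu, where 8.19% of tested genes were listed as lower in SCC1 and 6.44% in FaDu. These counts depend on filing. DDO, higher in SCC1, was filed with the oxidases, where AOX1 is counted again. MTRR, lower in both lines, was filed with the reductases, and ALDH1L2, lower in SCC1, with the aldehyde dehydrogenases. LOXL4, of the same family as LOXL3, was 2.33-fold lower in SCC1 (1.36 to 4.18), on 19 reads with FOSL1 siRNA and 52 in the control.

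The largest fold among FaDu members belonged to CP, ceruloplasmin, the copper ferroxidase of plasma. It had 42 reads (4.05 CPM) with FOSL1 siRNA and 1 read (0.0871 CPM) in the control, a ratio of 46.5 (7.90 to 1880). With 1 CPM added to both values its log2 ratio was 2.22 in place of 5.54. In the authors' deposited table its FDR was 1.27e-05, with a fold of 41.5. DUOXA1, which the hydrogen peroxide-producing oxidase DUOX1 needs for maturation, had 1.06 CPM (11 reads) with FOSL1 siRNA and 0.174 CPM (2 reads) in the control, a ratio of 6.09 (1.33 to 56.5). Its exons overlap those of DUOX1 and DUOXA2 on the opposite strand. SMOX, which oxidises spermine, had 45.5 CPM with FOSL1 siRNA and 20.5 CPM in the control and was 2.22-fold higher (1.90 to 2.61). STEAP2, a metalloreductase, had 0.289 CPM (3 reads) with FOSL1 siRNA and 1.22 CPM (14 reads) in the control, 4.21-fold lower (1.18 to 22.9). LACC1, named for a laccase domain, was 3.16-fold lower (1.53 to 7.16) at 0.965 CPM (10 reads) with FOSL1 siRNA and 3.05 CPM (35 reads) in the control. DDO, which degrades D-aspartate, was the SCC1 member with the fewest reads, 13 (1.15 CPM) with FOSL1 siRNA and 2 (0.151 CPM) in the control, a ratio of 7.63 (1.73 to 69.6). A list of 46 oxidase genes held lysyl, amine, NADPH and sulfhydryl oxidases and others, among them AOX1, CP, CPOX, PCYOX1 and PPOX. On it 2 genes were higher and 4 lower in SCC1, and 6 were higher and 2 lower in FaDu. IL4I1 and NCF1, both higher in FaDu, are its listed genes that are no members. CPOX and PPOX are also counted with heme synthesis. The share of all tested genes listed was 13.8% in SCC1 and 11.2% in FaDu.

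Sorted by carrier, a grouping made after the values were seen, the members filed under NAD(P), which leaves out flavin enzymes that also draw on NAD(P) such as GSR, POR, MTRR and XDH, were 7 higher and 4 lower in SCC1, and 4 higher and 0 lower in FaDu. Those filed under flavin were 4 higher and 7 lower in SCC1, and 1 higher and 3 lower in FaDu. These counts sit beside the 40.6% and 42.5% of all listed genes that were higher, and they include ALDH1L2, ZADH2 and FOXRED1 on the lower side in SCC1, all of which turn under the shift of the median. In all, 17 of the 42 members share exonic bases with another protein-coding gene in GENCODE 29, 15 of them with one on the opposite strand, and for these the reads of overlapping genes cannot be told apart.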

How the data were processed

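RNA-seq values of 4 libraries, 1 per group, were read from 1 deposited table per line. The submitters' processing notes name TopHat and Cufflinks, and the build hg18, with no version or order. The sources used here do not give the read counter, the normalization or the strand setting. The expression columns hold CPM as deposited by the authors, and 100% of them came out as whole reads when divided by the value of 1 read, to a tolerance of 0.01 read. Beside them stand the authors' p-value, FDR and a signed fold, deposited as a score that is negative where FOSL1 siRNA was lower.

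Reads were recovered from the CPM steps, and ratios were taken as FOSL1 siRNA over control with no pseudocount and exact binomial intervals at 95% confidence. A gene counted as higher or lower from 1.5-fold, a bound that every listed gene passed. The number of genes the authors tested, 13796 per line, follows from their FDR and p-values. No test between conditions was made. As an added alternative, edgeR's likelihood ratio test on the recovered reads (edgeR 4.0.16, R 4.3.3) was run at assumed dispersions. At 0.05 its p-values lay within 1% of the authors' for 1903 of 1903 and 1545 of 1545 genes; it compares libraries, not conditions.

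Members, lists and tests were chosen with earlier results of these data known, and the heme and folate lists, roles and carriers after the values were seen. Every member is named; full values are given for members in both tables, of at least 3-fold, reaching 100 CPM or with an FDR under 0.05. One member name was matched by an older symbol (ZADH2). Exon overlaps come from GENCODE 29 and promoters from RefSeq, both on GRCh38, by name. One result on an overlapping gene is not reported here. Promoters of ACAD11, ALDH16A1, ALDH1L2, ALDH3A1, ALDH3B2, CBR3, CP, FOXRED1, GSR, MTRR, POR and SMOX were not used here. Read recovery, intervals and the count test were tested on simulated data. Scripts ran in Python 3.11.15 with SciPy 1.17.1, pandas 2.3.3, numpy 2.4.6 and, for plots, matplotlib 3.10.9.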

Additional observations from a re-analysis of the deposited data

How the results depend on the processing

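A fold of 2, a pseudocount of 1 CPM and both narrower name rules left each count of higher and lower members within 1.5 times its value, and the count of members in both tables stayed between 7 and 10. A minimum of 5 CPM in one library left 6 higher members in FaDu in place of 10, because low genes drop out. An authors' FDR under 0.05 left 1 higher and 4 lower members in SCC1, and 1 higher and 1 lower in FaDu. The added count test at p under 0.05, chosen after seeing the data, called all members and all 1903 and 1545 listed genes at a dispersion of 0.05. This outcome was fixed in advance, because at that dispersion the test repeats the p-values by which the authors had compared the listed genes. At a dispersion of 0.16 it called 3 higher and 3 lower members in SCC1 (483 of all listed genes), and 3 higher and 1 lower in FaDu (461 of all listed genes). Shifting the median of listed genes to 0 left 5 lower members in SCC1 and 3 in FaDu. It turned the SCC1 log2 ratio of ALDH1L2 to 0.079, of FOXRED1 to 0.11, of UQCRC2 to 0.13 and of ZADH2 to 0.036, by the construction of the shift. With the pseudocount no single ratio changed sign, but the log2 ratio of AOX1 in SCC1 moved to -2.21 in place of -3.90 and that of CP in FaDu to 2.22 in place of 5.54. Within a line, no paired analysis was possible because each group has 1 library, and for the same reason no library could be left out. A fit with the line as a block, over genes listed in both tables, was not run, because listing had already used the same contrast in each line. Depth limits the members with few reads: 2 in SCC1 and 4 in FaDu had under 30 reads in both libraries.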
